A study of Mus musculus with 4 samples.

Results

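The tripartite motif (Trim) family was examined in kidney RNA from pristane-treated wild-type (WT) and Zbp1-/- (Zbp1-KO) mice. Its members were taken as all protein-coding mouse genes whose GENCODE symbol is Trim followed by a number and optional letters, which gave 68 of the 54532 genes listed in the count data. For comparison within the family, 15 members known to be interferon-inducible (Trim5, Trim12a, Trim12c, Trim14, Trim21, Trim25, Trim26, Trim30a, Trim30b, Trim30c, Trim30d, Trim34a, Trim34b, Trim38 and Trim56) were set against the other 53. All animals in both groups had been injected into the peritoneal cavity with 500 µL pristane, an oil used to bring on a lupus-like disease in mice, at 8 weeks of age, and whole kidneys were collected 8 months later. There were 2 WT and 2 Zbp1-KO libraries, 1 per kidney sample, and no library from untreated mice was analysed here. The knockout is a CRISPR-Cas9 deletion of several Zbp1 exons in the whole animal on a C57BL/6J background, so kidney cells and infiltrating immune cells both lack the gene. Zbp1 encodes a sensor of left-handed nucleic acid that is itself induced by interferon.

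Trim proteins are mostly E3 ubiquitin ligases built from a RING domain, B-box domains and a coiled coil, followed by a C-terminal domain that binds the target. Many members with a PRY-SPRY C-terminal domain are transcribed in response to type I interferon and act on viruses or on the signalling proteins that lead from nucleic acid sensors to interferon. Their transcription depends largely on interferon-stimulated response elements (ISREs), the DNA sites through which interferon signalling reaches its target genes. In lupus, interferon-induced transcripts are commonly raised in blood and affected tissue, and TRIM21, also called Ro52, is a frequent target of autoantibodies.

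The letters of the ISRE core, GAAA followed by any 2 bases and GAAA again, were looked for on both strands (TTTC, 2 bases and TTTC on the other strand) in RefSeq promoter windows (GRCm38.p6) that run from 250 bases before to 50 bases after each gene start. A window was listed for 53 of the 68 members, and Trim14 was the single interferon-inducible member without one. The letters were found in 8 of 14 interferon-inducible members (57.1%), in 1 of 39 other members (2.56%, Trim2) and in 1079 of all 27025 genes with a window (3.99%). The stretches around the ISRE matches are shown because 8 of the 9 members that hold these letters are interferon-inducible. Each is written 5′ to 3′ on the strand of its gene, with the matching letters in capitals.
Trim5, chr7:104288126-104288175, minus strand: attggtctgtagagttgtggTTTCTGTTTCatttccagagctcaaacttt
Trim12c, chr7:104353350-104353398, minus strand: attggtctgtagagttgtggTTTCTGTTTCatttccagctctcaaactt
Trim12a, chr7:104315466-104315495, minus strand: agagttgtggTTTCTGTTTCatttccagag
Trim30a, chr7:104465200-104465249, minus strand: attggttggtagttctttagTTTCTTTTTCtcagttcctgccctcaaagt
Trim30d, chr7:104507861-104507910, minus strand: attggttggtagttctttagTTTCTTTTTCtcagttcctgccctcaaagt
Trim34a, chr7:104244457-104244486, plus strand: tggtttggagTTTCAGTTTCttttctctgc
Trim21, chr7:102565450-102565479, minus strand: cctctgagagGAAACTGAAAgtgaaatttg
Trim26, chr17:36836966-36837015, plus strand: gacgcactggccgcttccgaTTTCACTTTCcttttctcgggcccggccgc

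Several of these stretches are copies of one another. The windows of Trim5 and Trim12a shared an unbroken run of 241 identical bases, those of Trim5 and Trim12c one of 71 bases, and those of Trim30a and Trim30d one of 118 bases. In Trim21 and in Trim26 the window held 2 overlapping matches, of which 1 is shown for each gene. Trim25 and Trim56, which were both well expressed in kidney, had no match in their windows, which says only that these letters are absent there. A match is a run of letters and not a measured binding site.

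Library depth and tissue identity bear on all values below, in which paired values are given for replicates 1 and 2 of WT first and of Zbp1-KO second. Total counts were 9878776 to 12921925 per library, of which 49.5% to 61.5% fell on mitochondrially encoded genes, and 3 counts corresponded to 0.221 to 0.323 CPM (library-size-normalised counts, with TMM factors). Zbp1 itself was counted 94 and 125 times with the gene intact and 18 and 0 times in the knockouts, or at 9.13 ± 2.21 against 0.664 ± 0.939 CPM (SD, n = 2 each). Both Zbp1-KO libraries were thus below both WT libraries, although the difference (log2 fold change -3.64 ± 0.89 SE) did not pass adjustment over all genes (adjusted p = 0.999, edgeR quasi-likelihood test). All 8 kidney markers examined were present. Markers of other tissues and cells differed between the groups, in both directions. Over all genes tested, 16.0% were higher in Zbp1-KO and 16.3% lower without overlap. All 7 tested of 8 fat markers were higher in Zbp1-KO without overlap (summed level 86.2 and 124 CPM against 271 and 246 CPM). Among them Cfd passed adjustment over all genes (log2 fold change 2.20 ± 0.23 SE, adjusted p = 0.00889, edgeR quasi-likelihood test). All 8 tested of 10 T cell markers had a positive log2 fold change (summed level 16.7 and 12.0 CPM against 27.9 and 22.5 CPM), 2 of them without overlap. The summed level of 8 general leukocyte markers was 139 and 116 CPM against 172 and 145 CPM, with 3 of them higher and 2 lower (Cd53 and Arhgdib) without overlap. Of 10 myeloid markers, all tested, 9 were higher and 1 lower (median log2 fold change 0.23), with 4 higher and 0 lower without overlap. Their summed level overlapped between the groups (389 and 256 CPM against 377 and 365 CPM). Of 8 B and plasma cell markers 6 were tested, of which 4 were lower and 2 higher (median log2 fold change -0.58). Without overlap, 2 of these were lower (Cd79b, -2.14 ± 1.13, and Ighm, -0.61 ± 0.23) and 1 was higher (Mzb1, 0.36 ± 0.48). Of 8 skeletal muscle markers, Ckm, Acta1 and Myh4 had 0 counts in every library, and 3 were tested at low levels, Mylpf (1.72 ± 1.09, higher without overlap), Actn3 (0.60 ± 1.14) and Myh1 (-0.18 ± 0.88). Whether fat, muscle or immune cells contributed to any difference below was not tested, and in whole kidney RNA a change in the number of cells and in the RNA per cell cannot be told apart.

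Of the 68 members, 41 had enough counts to be tested, 16 had counts in at least 1 library but were below the filter, and 11 had none (Trim31, Trim40, Trim42, Trim43b, Trim43c, Trim52, Trim54, Trim55, Trim58, Trim72 and Trim80). A count of 0 in these libraries allows a level of up to 0.221 to 0.323 CPM. The 16 below the filter included 5 interferon-inducible members, Trim14, Trim30b, Trim30c, Trim34b and Trim38, of which Trim14 had the most counts (33 over all libraries) and Trim34b the fewest (1). The absent group contains Trim54 and Trim55, muscle-specific ligases of the sarcomere, and Trim72, a muscle membrane repair protein, while their relative Trim63 was counted at 0.811 to 4.52 CPM.

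Taken as a whole the family differed little between genotypes. Its summed level was 904 and 937 CPM with Zbp1 and 926 and 951 CPM without it. The interferon-inducible members summed to 196 and 234 CPM against 265 and 252 CPM, with no overlap between the groups. The other members summed to 708 and 703 CPM against 661 and 698 CPM, again with no overlap but in the opposite direction. Per kilobase of exon, which allows genes to be compared with each other, the highest mean levels belonged to Trim7 (18.6 CPM per kb), a ligase that binds the glycogen primer glycogenin, Trim8 (13.2), a regulator of cytokine signalling, Trim12c (12.5), Trim44 (12.3), a member without a RING domain, and Trim28 (11.4), the corepressor of KRAB zinc finger proteins. Trim7 alone made up 13.0% to 17.8% of the family's CPM. Among these 5 the replicate values of neighbours in the order overlapped, apart from the step from Trim7 to Trim8, and Trim12c was the single interferon-inducible member.

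**Figure D1:**
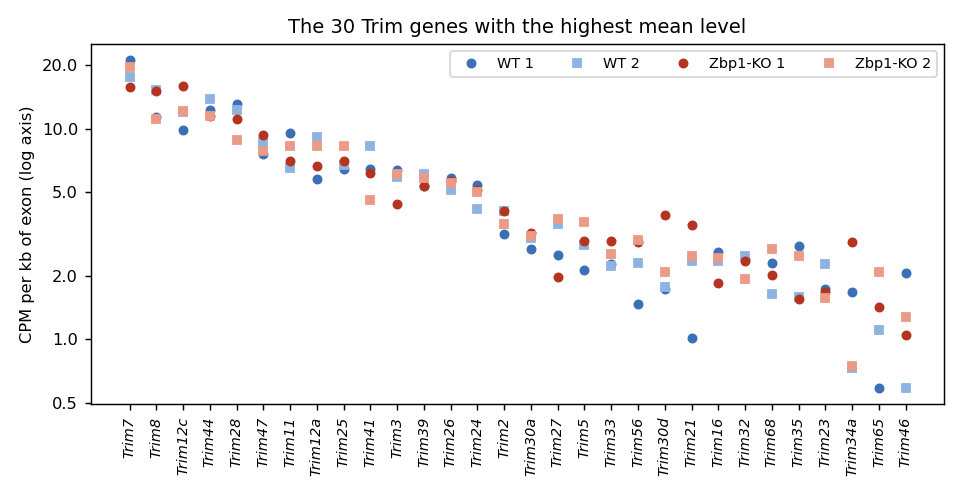
Level of the 30 Trim genes with the highest mean, in CPM per kilobase of exon on a log axis, with 1 point per library (blue, WT; red, Zbp1-KO; circles, replicate 1; squares, replicate 2). Trim7 leads with a mean of 18.6 CPM per kb, and the library spread widens towards the low end of the order.

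The main question was whether loss of Zbp1 altered the family. No member passed an adjusted p under 0.05 in the edgeR quasi-likelihood test (0 of 41, lowest adjusted p = 0.999), where 2 of all 14908 genes tested did (0.0134%). At an unadjusted p under 0.05, 3 of 41 members were higher in Zbp1-KO (7.32%), namely Trim13, Trim56 and Trim65, against 1.91% of all genes, and 0 were lower against 1.97% of all genes. In 12 of 41 members both Zbp1-KO libraries exceeded both WT libraries (29.3%), against 16.0% of all genes, and in 6 both were below (14.6%), against 16.3%. These counts rest on single libraries, and the members under the unadjusted limit changed when 1 library was left out. In those fits the log2 fold change ranged from 1.64 to 2.86 for Trim13, from 0.33 to 0.98 for Trim56 and from 0.65 to 1.56 for Trim65. The common biological coefficient of variation was 0.304.

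**Figure D2:**
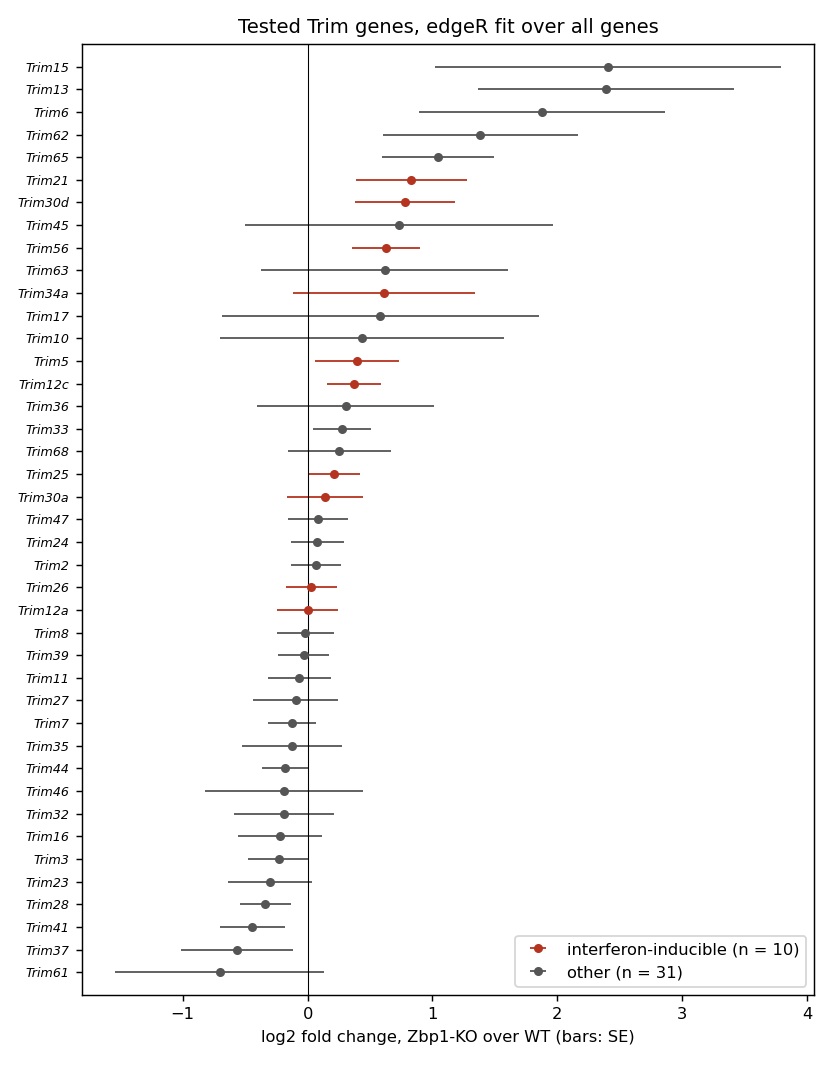
Log2 fold change of Zbp1-KO over WT with its SE for the 41 tested Trim genes, ordered by size (red, interferon-inducible; grey, other members). The 10 interferon-inducible members lie between -0.00 and 0.83, and the other 31 between -0.70 and 2.40.

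The interferon-inducible and other members differed in median log2 fold change but less in the mean of their log2 deviations by library. Of the 10 tested interferon-inducible members 9 had a positive log2 fold change, with a median of 0.38, and in 7 the groups did not overlap, all higher in Zbp1-KO (70.0%, against 16.0% of all genes). Of the 31 tested other members 15 were higher and 16 lower, with a median of -0.02, and 5 were higher (16.1%) and 6 lower (19.4%) without overlap. The median over all genes tested was -0.01, and 49.4% of them were higher in Zbp1-KO. The difference of the family medians was 0.40 and shrank to 0.03 without WT replicate 1, where the median of the other members came to 0.18. The mean log2 deviation of the interferon-inducible members from their 4-library mean was -0.30 and -0.09 (WT) against 0.33 and 0.05 (Zbp1-KO). The first library of each genotype lay farthest apart. The same mean for the other members was -0.04 and -0.19 (WT) against 0.03 and 0.20 (Zbp1-KO). On this measure, which weighs each gene equally however few its counts, both sets were higher in Zbp1-KO without overlap. The median of the other members was slightly negative, and their summed CPM was lower in Zbp1-KO. The difference between the sets was not tested.

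**Figure D3:**
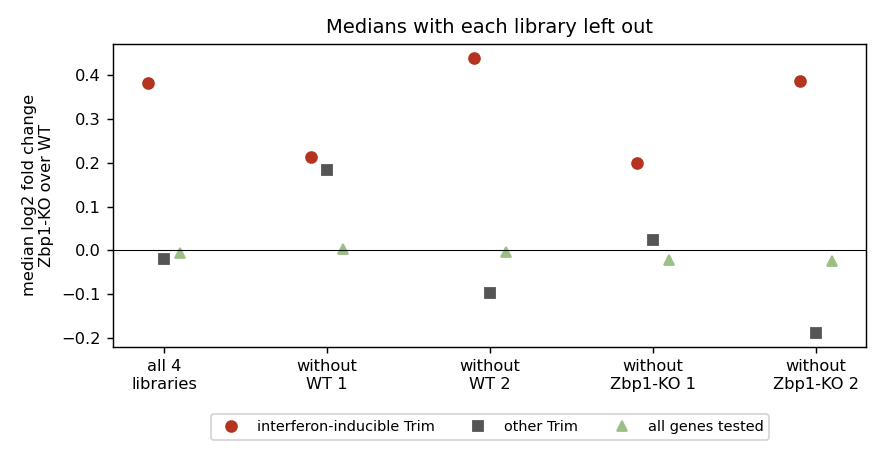
Median log2 fold change of Zbp1-KO over WT for the interferon-inducible members (n = 10), the other members (n = 31) and all genes tested, in the fit of all 4 libraries and with each library left out. The interferon-inducible median stays between 0.20 and 0.44, and the other members come within 0.03 of it when WT replicate 1 is left out.

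Among the interferon-inducible members, Trim56 (ENSMUSG00000043279, chr5:137105644-137116209, minus strand, GRCm38) came closest to a call. Trim56 lacks a PRY-SPRY domain and is an antiviral ligase linked to the nucleic acid sensing pathways of STING and TLR3. It measured 13.7 and 21.5 CPM (WT) against 26.9 and 27.4 CPM (Zbp1-KO). Both knockout libraries were above both WT libraries, and the log2 fold change was 0.63 ± 0.27 (SE), with an unadjusted p = 0.0386 and an adjusted p = 0.999 in edgeR. It ranged from 0.33 to 0.98 when single libraries were left out.

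Trim21, the cytosolic antibody receptor and lupus autoantigen, measured 3.78 and 8.72 CPM (WT) against 12.9 and 9.26 CPM (Zbp1-KO). The groups did not overlap, but the gap between 8.72 and 9.26 CPM was much smaller than the spread within either group (log2 fold change 0.83 ± 0.45). Its log2 fold change was 0.34 without WT replicate 1 and 1.55 without WT replicate 2. Trim30d, a mouse member of the Trim30 branch, measured 6.51 and 6.67 CPM (WT) against 14.7 and 7.86 CPM (Zbp1-KO), so that Zbp1-KO replicate 1 carried most of its log2 fold change of 0.78 ± 0.40. Its neighbour Trim30a, a negative regulator of Toll-like receptor signalling through TAB2 and TAB3, measured 11.0 and 12.5 CPM (WT) against 13.1 and 12.7 CPM (Zbp1-KO) (0.14 ± 0.30). The difference between Trim30a and Trim30d was not tested, and Trim30d came to 0.25 without Zbp1-KO replicate 1.

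Trim5, Trim12a and Trim12c are the rodent relatives of the retroviral restriction factor TRIM5. Trim12c measured 36.8 and 45.0 CPM (WT) against 59.9 and 45.6 CPM (Zbp1-KO) (log2 fold change 0.37 ± 0.22). Trim5 measured 7.88 and 10.3 CPM (WT) against 10.8 and 13.2 CPM (Zbp1-KO) (0.40 ± 0.34). For both genes the groups were next to each other without overlap. Trim12a measured 33.2 and 52.8 CPM (WT) against 38.3 and 47.7 CPM (Zbp1-KO), with the WT libraries on either side of the knockout libraries and a log2 fold change of -0.00 ± 0.25, whose sign differed among the alternative fits. Trim34a, a further relative in the cluster, measured 4.34 and 1.88 CPM (WT) against 7.52 and 1.94 CPM (Zbp1-KO). In Trim34a the first library of each genotype was above the second, and the log2 fold change of 0.61 ± 0.73 turned to -0.69 without Zbp1-KO replicate 1.

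Trim25 and Trim26 were abundant and nearly level. Trim25, the ligase that activates the RNA sensor RIG-I, measured 36.9 and 38.7 CPM (WT) against 40.3 and 47.4 CPM (Zbp1-KO) (log2 fold change 0.21 ± 0.20). Trim26, a ligase reported to act on IRF3, measured 40.0 and 35.2 CPM (WT) against 38.6 and 38.0 CPM (Zbp1-KO) (0.03 ± 0.20). The Trim25 groups were separated by less than 2 CPM, and the Trim26 groups overlapped.

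**Figure D4:**
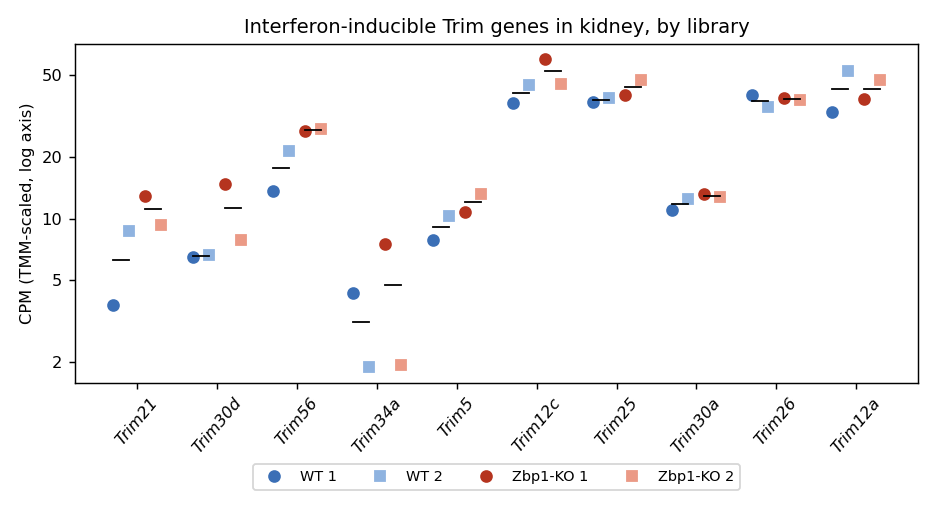
Level of the 10 tested interferon-inducible Trim genes in CPM on a log axis, 1 point per library (blue, WT; red, Zbp1-KO; circles, replicate 1; squares, replicate 2) with the mean of each group as a bar, ordered by log2 fold change. In 5 of 10 genes Zbp1-KO replicate 1 is the highest library, and Trim34a follows replicate 1 against replicate 2 in both genotypes.

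The highest library was Zbp1-KO replicate 1 in 5 of the 10 interferon-inducible members, Zbp1-KO replicate 2 in 3, and WT replicate 1 and WT replicate 2 in 1 each. Over all genes tested the corresponding shares were 26.5%, 26.5%, 23.1% and 23.9%. Without Zbp1-KO replicate 1, 9 of 10 members were positive at a median of 0.20, although not the same members, since Trim34a turned to -0.69 and Trim12a to 0.14. In that library 49.5% of the counts were mitochondrial, against 57.4% to 61.5% in the other libraries. With mitochondrially encoded genes left out of the fit, the interferon-inducible median was 0.37 and the difference of the family medians 0.39. With them kept in, these were 0.38 and 0.40. Any further part of the mitochondrial share in the values was not tested. Counting the interferon-inducible genes instead as the Trim members of the module M7 of the study gave 8 tested members, all 8 with a positive log2 fold change (median 0.31), where 49.4% of all genes were positive, of which 5 were higher without overlap (62.5%, against 16.0% of all genes). The module comes from a time course of cGAS-STING activation in other samples. Of these 8 members 7 are in both lists, Trim68 being the exception. For M7core, a subset of the module that was not examined here as a set, the study reported no significant change in Zbp1-KO kidneys.

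Of the 15 interferon-inducible members, 9 lie close together in the genome. The cluster on chromosome 7 from Trim6 to Trim30d (chr7:104218793-104507849, GRCm38) holds 10 members, of which 7 were tested, 6 were higher in Zbp1-KO and 1, Trim12a, was level at -0.00, with a median log2 fold change of 0.40. In 5 of the 7 the groups did not overlap, all higher, as in 16.0% of all genes. A smaller group on chromosome 17 (chr17:36258873-36910214) holds 6 members, Trim39, Trim26, Trim15, Trim10, Trim40 and Trim31, of which 4 were tested with a median of 0.23. Genes of the chromosome 7 cluster partly share sequence: 8.06% of the 150-base stretches of Trim34a, 3.29% of Trim5, 3.24% of Trim30a, 3.23% of Trim30d and 2.54% of Trim12c occur in another gene, so the counts of these genes carry some uncertainty where neither read of a pair reached unique sequence. In addition, 23.5% of the Trim34a exon bases lie opposite the antisense gene Gm47248, and unless strand was used in counting, reads of the 2 genes cannot be told apart.

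**Figure D5:**
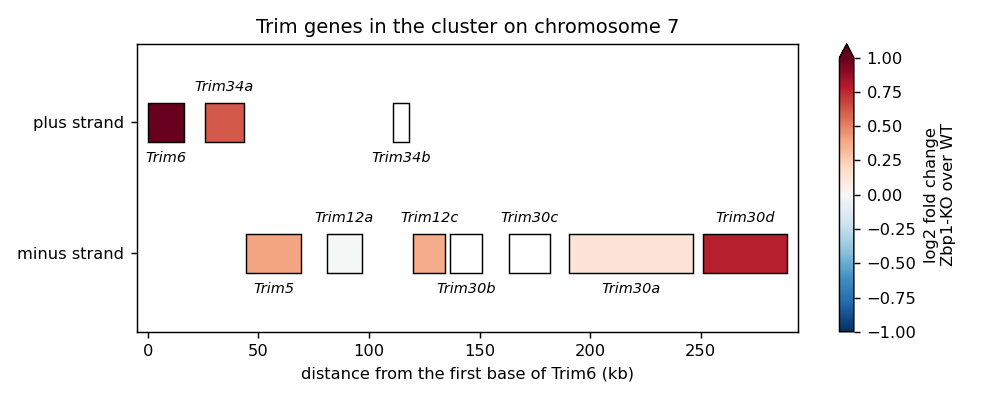
Map of the 10 Trim genes in the chromosome 7 cluster, by strand and by distance in kilobases from the first base of Trim6, coloured by log2 fold change of Zbp1-KO over WT (white with an outline, not tested; the scale ends at 1). Trim6 and Trim30d at the ends of the cluster have the highest values, 1.87 and 0.78, and Trim12a is at -0.00.

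Outside the interferon-inducible set, the larger differences were in genes with few counts. Trim13 (ENSMUSG00000035235, chr14:61598247-61605946, plus strand), a ligase anchored in the endoplasmic reticulum membrane, had 9 and 5 counts against 58 and 17 counts, or 0.724 and 0.428 CPM against 4.28 and 1.83 CPM. The groups did not overlap, but the gap between 0.724 and 1.83 CPM was smaller than the spread within Zbp1-KO (log2 fold change 2.39 ± 1.03, unadjusted p = 0.0385, adjusted p = 0.999, edgeR). Trim65 (ENSMUSG00000054517, chr11:116121846-116131128, minus strand), a ligase that acts on the RNA sensor MDA5, measured 3.46 and 6.50 CPM (WT) against 8.33 and 12.3 CPM (Zbp1-KO) (1.05 ± 0.45, unadjusted p = 0.0392, adjusted p = 0.999, edgeR). Trim65 overlaps Trim47 on the same strand by 225 exon bases, 3.82% of its own exon length, and Trim47 itself was nearly level (log2 fold change 0.08). Trim6, a ligase of the IKBKE branch of interferon signalling that heads the chromosome 7 cluster, measured 0.563 and 1.03 CPM (WT) against 3.91 and 1.94 CPM (Zbp1-KO) (1.87 ± 0.98).

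The differences in the other direction were smaller. Trim41, a RING ligase with a PRY-SPRY domain, measured 22.6 and 29.1 CPM (WT) against 21.7 and 16.2 CPM (Zbp1-KO) (log2 fold change -0.44 ± 0.26). Trim28 measured 54.4 and 51.1 CPM (WT) against 46.5 and 36.8 CPM (Zbp1-KO) (-0.34 ± 0.20). Trim61, a little-studied member next to Trim60, measured 3.30 and 2.14 CPM (WT) against 1.92 and 1.40 CPM (Zbp1-KO) (-0.70 ± 0.84). In these 3 genes both knockout libraries were below both WT libraries, and none passed the test. The abundant Trim7 overlapped between groups at 160.5 and 134 CPM against 120.5 and 150 CPM.

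Some members varied more between replicates than between genotypes. Trim62 measured 2.49 and 2.48 CPM (WT) against 1.62 and 11.5 CPM (Zbp1-KO). Trim45 measured 2.33 and 0.0855 CPM (WT) against 1.99 and 2.05 CPM (Zbp1-KO). A single library set the difference in each of the 2 genes. Trim15, with 38 counts over all libraries, had the highest log2 fold change of the family at 2.40, with an SE of 1.39.

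By protein structure, the PRY-SPRY members accounted for most of the tested genes. Structural classes came from a list by gene name, and no protein sequence was checked for its domains. Of the 23 tested members listed with this domain 16 were higher and 7 lower in Zbp1-KO (median log2 fold change 0.25). In this class 9 were higher and 1 lower without overlap (against 16.0% and 16.3% of all genes). As listed, the class contains 9 of the 10 tested interferon-inducible members. The 3 tested NHL members, Trim2, Trim3 and Trim32, had a median of -0.19. The 3 tested chromatin-binding members with PHD and bromodomains, Trim24, Trim28 and Trim33, had a median of 0.08 and split between higher (Trim33, 0.27) and lower (Trim28). Both tested members without a RING domain, Trim16 and Trim44, were lower (-0.22 and -0.18). Family proteins named otherwise were Pml at a log2 fold change of 0.15, Mid1 at -0.10 and Mid2 at 0.57, none of which passed the test.

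The genes that Trim proteins act upon or are induced with were read from the same fit. Of 34 interferon-stimulated genes, all tested, 26 were higher and 8 lower in Zbp1-KO (median log2 fold change 0.34), with 0 called at an adjusted p under 0.05 in edgeR. An unadjusted p under 0.05 was reached by 7 of the higher genes and by 1 of the lower ones (1.91% and 1.97% of all genes). The highest ranked was Nlrc5, a regulator of MHC class I genes, at 9.81 and 12.8 CPM against 30.5 and 27.6 CPM (1.36 ± 0.26). The one lower gene was Oasl1 (-1.42 ± 0.57), and Isg15 was lower without reaching the unadjusted limit (-0.52 ± 0.32). The study's own RNA-Seq analysis of Zbp1-KO kidneys, with a negative binomial test of edgeR, called 8 times as many interferon-stimulated genes raised as lowered. By quantitative PCR, with more mice per group than here, the study reported both Isg15 and Oas2 as raised in Zbp1-KO kidneys of this model. In the libraries used here Oas2 was higher (0.64 ± 0.20) and Isg15 was not. The mean log2 deviation of the 34 interferon-stimulated genes by library was -0.22 and -0.06 (WT) against 0.29 and -0.01 (Zbp1-KO). This is the same order of libraries as in the interferon-inducible Trim genes.

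Of 20 genes of the sensing pathways that Trim ligases modify, 18 were tested, of which 13 were higher and 5 lower (median 0.21), and 4 were higher at an unadjusted p under 0.05, as were 1.91% of all genes. These were the DNA sensor Cgas (3.05 ± 1.33, from 5 and 1 counts against 28 and 20 counts), the kinase Ikbke (0.99 ± 0.37), the adaptor Traf3 (0.66 ± 0.30) and the TAK1 partner Tab3 (1.07 ± 0.47). For Tab3 the values were 5.23 and 4.36 CPM (WT) against 13.9 and 6.14 CPM (Zbp1-KO). Mavs, the adaptor downstream of RIG-I, stood at 0.51 ± 0.26 and did not pass the test. Without overlap 7 of the 18 were higher and 1, Irf3, was lower (-0.25 ± 0.19), against 16.0% and 16.3% of all genes. None of the 18 was called after adjustment.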

How the data were processed

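Kidney poly(A) RNA from 2 WT and 2 Zbp1-KO mice was sequenced by the authors from TruSeq libraries. The authors trimmed reads, aligned them with HISAT2 (mm10 per the submitters' processing notes) and counted uniquely mapped pairs per gene with featureCounts. What they deposited are raw counts per Ensembl gene, 1 column per library. The authors' methods describe strand-specific library preparation. The annotation release, program versions and the strand setting of the counting are not given in the sources used here. Groups came from the sample titles. Nothing says that same-numbered samples were paired (correlation of their deviations 0.00), and p-values measure only the spread between these samples.

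Symbols, positions and exon lengths were read from GENCODE M21 (GRCm38), where 54495 of the 54532 gene IDs were found. The two-sided quasi-likelihood F test of edgeR 4.0.16 under R 4.3.3 was run after filterByExpr (minimum count 10, minimum total 15) and TMM scaling, with genotype as the only term, and adjusted by Benjamini-Hochberg over all 14908 genes. A positive log2 fold change means a higher level in Zbp1-KO (prior count 0.125), and its SE was derived from the F statistic. The floor of 3 counts covers counting error only. The fit was also run on counts simulated from its own dispersions and library sizes. Such a run checks the code and cannot show how well the test performs on these data. Other scalings, filters and tests (DESeq2 1.42.0 among them), the replicate number as a block, and each library left out in turn were run as alternatives. Genes named are the tested interferon-inducible members, members with an unadjusted p under 0.05, those with the largest non-overlapping differences and those highest per kilobase. Trim62, Trim45, Trim15 and the single genes of other lists were named after their values were seen. Members and lists were chosen with earlier results of these data known.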

Additional observations from a re-analysis of the deposited data

How the results depend on the processing

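No Trim member was called at an adjusted p under 0.05 under any alternative run (lowest adjusted p from 0.277 to 1.00). Members at an unadjusted p under 0.05 numbered 3 in the fit described (3.88% of all genes), 5 when all genes with at least 1 count were tested (3.72%), 5 with the edgeR likelihood ratio test (4.84%), 1 with the DESeq2 Wald test (3.13%), and 0 to 7 with single libraries left out (2.32% to 9.27%). With the replicate number as a block the number was 2 (3.91%). Without overlap, 18 members differed in either direction with all libraries and 26 to 31 with 1 left out, an alternative chosen after seeing the data. With all libraries 29.3% of members were higher and 14.6% lower, against 16.0% and 16.3% of all genes. With 1 library left out, 36.6% to 48.8% of members were higher and 19.5% to 39.0% lower. Over all genes these shares were 29.6% to 34.6% and 31.5% to 35.6%, since a smaller group overlaps less by construction. The interferon-inducible median ranged from 0.20 (without Zbp1-KO replicate 1) to 0.44, the median of the other members from -0.19 (without Zbp1-KO replicate 2) to 0.18 (without WT replicate 1), and their difference from 0.0302 (without WT replicate 1) to 0.58. The replicate block gave Trim12a 0.0303, which turned its sign, as did upper quartile factors (0.004), a mean of at least 1 CPM (0.0015), the edgeR exact and likelihood ratio tests (0.0001 each) and DESeq2 (0.0002). With single libraries left out the sign also turned for Trim12a (-0.30 to 0.37), Trim26 (-0.0666 to 0.12), Trim34a (-0.69 to 1.33), Trim7 (-0.30 to 0.0205) and Trim8 (-0.27 to 0.20). Zbp1 passed the threshold when all genes were tested (-3.65), with either other edgeR test (-3.67 each), and with a Zbp1-KO library left out, where it ranged from -4.82 to -2.78 (the lower value is a bound from 3 counts). Interferon-stimulated genes called, chosen after seeing the data, numbered 2 with all genes tested, where 41 of 22065 genes were called. They numbered 1 with the exact test (14 of all 14908 genes) and 1 with the likelihood ratio test (26 of 14908). The median of the interferon-stimulated genes ranged from 0.12 to 0.47 with single libraries left out. The causes were not tested. The filter on low counts kept 16 counted members out of the test.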
